A study of Mus musculus with 20 samples.

Results

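Mouse kidneys that had been protected in different ways before the same ischemia/reperfusion injury (IRI) were compared directly. Of the 20 arrays of the series, 8 were used, chosen by sample title: 4 of kidneys preconditioned before the injury (IPC+IRI) and 4 of kidneys from mice given hemin before it (IRI+Hemin). All mice were C57BL/6 males, 8 to 12 weeks old, with no allele or transgene named. In IPC+IRI, both kidneys underwent 15 min of clamping 7 days ahead of the injury, which is the preconditioning. In IRI+Hemin, hemin was injected into the peritoneum at 25 mg/kg, 24 h ahead of surgery. Both groups then went through 45 min of ischemia of both kidneys and 6 h of reperfusion. The other 12 arrays, 4 each of IRI without protection, of Control kidneys and of kidneys from mice given Hemin without ischemia, serve here as reference levels. The labels and methods describe neither a sham operation nor a vehicle injection for any group. The question addressed is in which genes the kidney differs at 6 h depending on which protection preceded the injury.

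In ischemic preconditioning the blood supply of an organ is cut off for so short a time that the tissue survives, and the organ then tolerates a long cut better. Hemin is the oxidised form of heme, and it is used experimentally as an inducer of heme oxygenase-1, the enzyme that opens the heme ring and releases iron, carbon monoxide and biliverdin. After ischemia the cells of the proximal tubule, which depend on fatty acid oxidation, carry most of the damage, and leukocytes enter the kidney during the hours and days of reperfusion. RNA was taken from whole kidney, so fewer cells of a type and less RNA per cell cannot be told apart in any result that follows.

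Each array gave 1 colour intensity for 41174 probes under 27827 gene names. Levels are log2 values of the background-subtracted signal divided by the 75th percentile of the same array, so that 0 is the 75th percentile and a difference of 1 is a 2-fold change. Differences are IPC+IRI minus IRI+Hemin. The value after ± is the SE for a difference and the SD over 4 arrays for a level. A gene was tested where 3 or more of the 4 arrays in either group were well above background, and it was called at an adjusted p below 0.05 (limma, Benjamini-Hochberg over all genes tested) together with a change of at least 2-fold. A gene below 2-fold with an adjusted p below 0.05 is said to have passed the test. The named genes come with their probe positions in mouse build mm9 where the results turn on them, as the array files give them. The 8 arrays had between 60.2% and 66.5% of genes well above background, and the mean correlation of an array with the others of its group lay between 0.979 and 0.987. Markers of the proximal tubule were abundant in both groups, and their summed linear level was 781 to 981 in IPC+IRI and 640 to 1170 in IRI+Hemin. No slide held more than 1 group. The IPC+IRI slide was scanned on the day of the Hemin slide and the IRI+Hemin slide on another day, so that slide, scan day and protection cannot be told apart. The Control and IRI slides were scanned together on a further day, so comparisons with these reference levels share that limit.

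Of 18101 genes tested, 302 (1.67%) were called higher in IPC+IRI and 196 (1.08%) were called lower, that is, higher in IRI+Hemin. By adjusted p alone, 1162 genes (6.42%) were higher and 1020 (5.64%) were lower, and at an unadjusted p below 0.05 these numbers were 2658 and 2561. The counts of list members that follow are to be read against 6.42% higher and 5.64% lower. The split moved with the processing: 60.6% of the calls were in the direction of IPC+IRI, against 63.4% with no filter on dim genes, 56.0% among genes above background on all 8 arrays, 50.6% without any scaling between arrays and an even split with another background correction (normexp), which called 62 genes each way. In the log2 matrix deposited by the authors it was 50.8%, with 170 genes higher and 165 lower. Without IPC+IRI replicate 1 it was 70.5% (360 higher and 151 lower), and without both that array and IRI+Hemin replicate 4 it was 69.1%. Without scaling, 183 genes were higher and 177 lower by adjusted p alone, and with the 8 arrays fitted alone 381 and 280. The normexp correction adds an offset of 50 to every signal, which by itself shrinks the log2 differences of dim genes. The median difference over all genes was -0.01. In 1462 genes (8.08%) all 4 IPC+IRI arrays lay above all 4 IRI+Hemin arrays, and in 1564 (8.64%) all 4 lay below. Of the 498 called genes, 73.7% were without overlap. With 4 arrays against 4, the exact two-sided permutation test of a single gene can give no p below 0.0286.

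**Figure D1:**
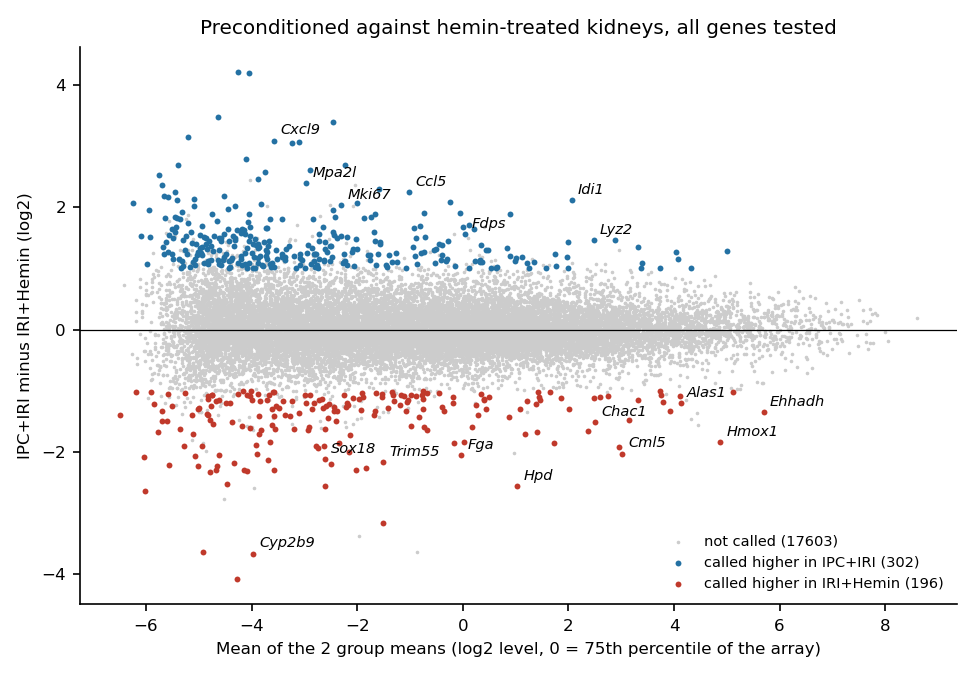
Difference between IPC+IRI and IRI+Hemin (log2, vertical axis) against the mean level of both groups (log2, horizontal axis) for the 18101 genes tested, with 302 genes called higher in IPC+IRI in blue, 196 called lower in red and the rest in grey. Idi1 and Fdps stand out above, Hmox1, Hpd, Ehhadh and Alas1 below at mid to high levels, and most of the larger differences lie among genes of low level.

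Heme oxygenase-1 itself, Hmox1 (NM_010442, probe at chr8:77624207-77624266), was called lower in the preconditioned kidneys. The 4 IPC+IRI arrays had Hmox1 levels of 2.87, 4.65, 2.99 and 5.32, and the 4 IRI+Hemin arrays had 5.38, 6.12, 6.61 and 5.09. Replicates 1 and 3 of IPC+IRI lay well below all others, replicate 2 lay just below the lowest IRI+Hemin array, and replicate 4 lay within the range of IRI+Hemin, so the groups overlapped. The difference was -1.84 ± 0.46 (SE, 3.58-fold, adjusted p = 0.016, exact permutation p = 0.0571). This call did not hold without IPC+IRI 1 or 3 or IRI+Hemin 3 (adjusted p of 0.0512 to 0.0524), where the number after a group name is the replicate left out. It also did not hold without scaling between arrays (adjusted p = 0.0739) or with the 8 arrays fitted alone (adjusted p = 0.114). Injured kidneys without protection had a Hmox1 level of 6.03 ± 0.48 (SD, n = 4), Control kidneys 1.37 ± 0.52 and Hemin kidneys without ischemia 1.93 ± 0.21, so that at this time the hemin-treated injured kidneys lay beside the unprotected ones and the preconditioned kidneys lay below both.

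Of the 21 genes tested in the list of heme and iron handling, 4 were lower in IPC+IRI (19.0%, beside 5.64% of all genes), 1 was higher (4.76%, beside 6.42%) and 16 did not pass, with a median of -0.16. The count of 4 was 1 without scaling between arrays. Alas1, the rate-limiting enzyme of heme synthesis in most tissues, stood at 3.68, 3.33, 3.98 and 3.11 in IPC+IRI and at 5.17, 4.87, 4.56 and 4.31 in IRI+Hemin, with no overlap between the groups. The difference was -1.20 ± 0.22 (adjusted p = 0.00264), and it passed under each of the 20 alternative settings, such as other scalings or leaving out 1 array. Ftl1, the ferritin light chain that stores iron, was lower at a difference of -0.62 (adjusted p = 0.00701), and so was Slc48a1, which exports heme from the lysosome, at -0.51 (adjusted p = 0.00253). Tfrc, the transferrin receptor that brings iron into cells, was higher in IPC+IRI, with levels of 1.62, 0.60, 1.09 and 0.61 against 0.14, -0.08, -0.33 and 0.34. The groups did not overlap for Tfrc, and its result (difference 0.96, adjusted p = 0.0205) did not hold without IPC+IRI 1 or IRI+Hemin 2 or 3 (adjusted p of 0.0546 to 0.0649). Haptoglobin (Hp), which binds free hemoglobin, ranged from -1.48 to 2.79 in IPC+IRI and from -1.26 to 4.75 in IRI+Hemin and did not pass (adjusted p = 0.526).

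**Figure D2:**
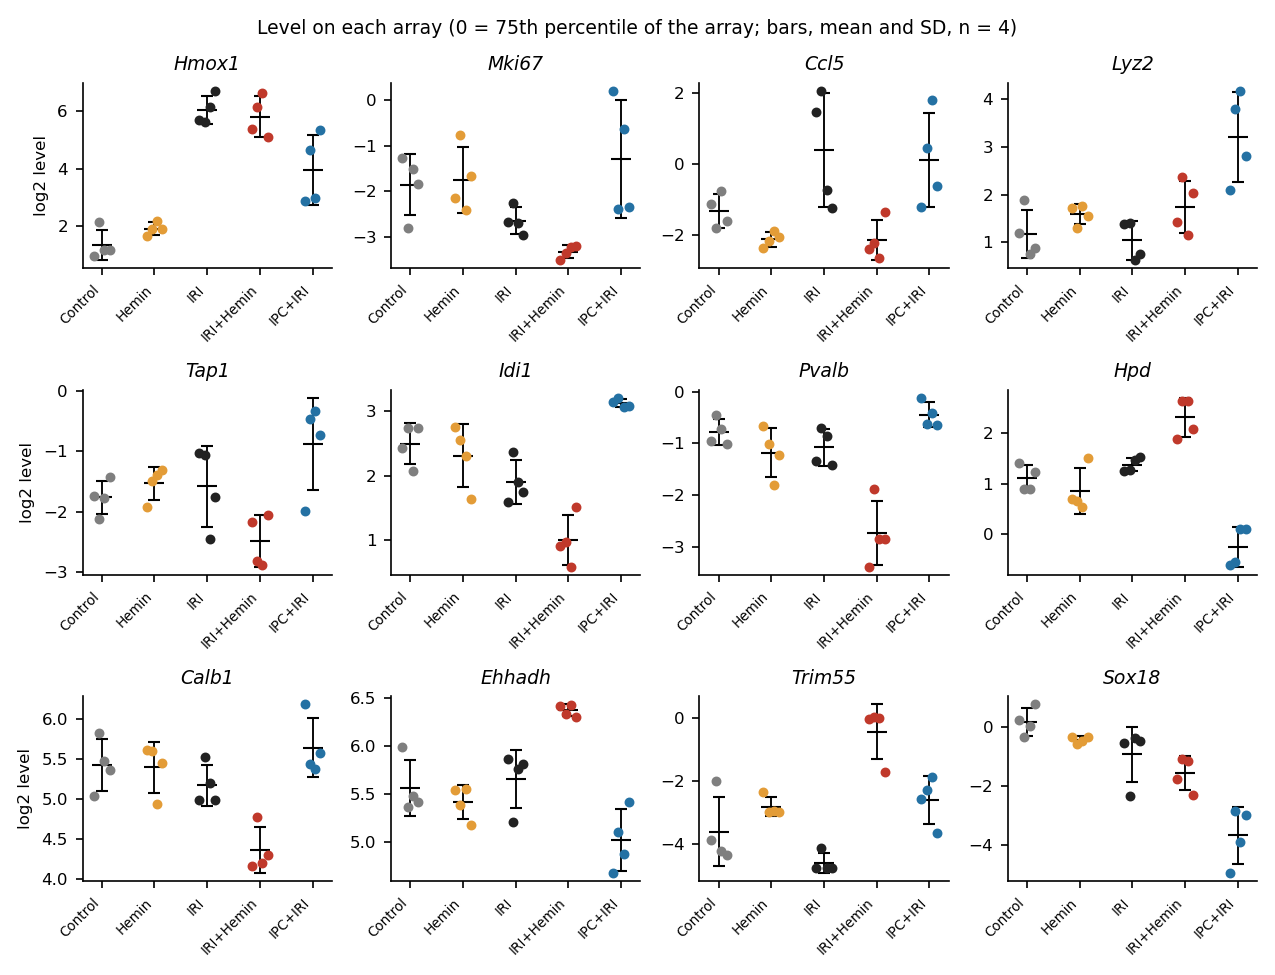
Log2 level (vertical axis, 0 is the 75th percentile of the array) of 12 genes on each of the 20 arrays, by group, with bars for the mean and SD of 4 arrays. Idi1, Pvalb, Calb1, Hpd and Ehhadh separate the 4 preconditioned from the 4 hemin-treated injured kidneys, while Mki67, Ccl5 and Lyz2 spread widely within IPC+IRI.

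Genes of cholesterol synthesis and uptake were higher in the preconditioned kidneys in 14 of 21 tested (66.7%, beside 6.42% of all genes). The pathway builds isoprenoids and then sterols from acetyl-CoA by way of mevalonate, and its genes are known to be switched on together by the factor SREBP2 when the sterol content of the endoplasmic reticulum falls. All 21 had positive differences, 5 of the 14 that passed were called, and none was lower. The median of the list was 0.74, beside -0.01 over all genes. In 10 of the 21 genes all IPC+IRI arrays lay above all IRI+Hemin arrays, beside 8.08% of all genes. The count of 14 was 5 without scaling between arrays, 8 with the 8 arrays fitted alone and 9 with the normexp background correction, and 10 to 16 with each array left out in turn.

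Idi1 (NM_177960), which isomerises the basic isoprene unit, had levels of 3.14, 3.21, 3.07 and 3.08 in IPC+IRI and 0.91, 0.98, 0.59 and 1.52 in IRI+Hemin. All preconditioned arrays lay above all hemin-treated ones and above the IRI mean of 1.90 ± 0.34, and all but 1 of the hemin-treated arrays lay below 1. The difference was 2.12 ± 0.23 (4.36-fold, adjusted p = 0.000199, exact permutation p = 0.0286). The array files place the 2 Idi1 probes at chr2:53553575-53555625 in mm9, whereas the RefSeq table has the gene on chromosome 13, and which copy the probes read was not tested. Fdps (chr3:88898812-88903085), which joins isoprene units into farnesyl pyrophosphate, had levels of 1.08, 0.70, 0.66 and 0.86 in IPC+IRI and -1.03, -0.66, -0.97 and -0.28 in IRI+Hemin, again with no overlap. Its difference of 1.56 ± 0.19 (adjusted p = 0.000267) is that of the mean over 2 probes, of which 1 gave 1.67 and the other, well above background on all 8 arrays, gave -0.49.

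Dhcr7, the last enzyme of the pathway, was higher by 1.11 ± 0.18 (adjusted p = 0.00129). Its levels were 1.15, 0.65, 1.04 and 0.71 against -0.27, -0.32, -0.54 and 0.24, without overlap. Insig1, which holds the SREBP complex in the endoplasmic reticulum and is itself a sterol-regulated gene, had levels of -1.45, -1.80, -1.66 and -1.75 against -2.72, -2.80, -3.07 and -2.32 and was higher by 1.06 ± 0.14 (adjusted p = 0.000367). Idi1, Fdps, Dhcr7 and Insig1 passed under each alternative setting. Sc4mol, a sterol demethylase, was called as well (difference 1.01, adjusted p = 0.00548), and Nsdhl, which acts beside it, passed at 0.81 (adjusted p = 0.000563). Srebf2, which encodes SREBP2, was higher by 0.58 (adjusted p = 0.00558), but in the authors' log2 matrix its difference was near 0 and did not pass (adjusted p = 0.999). In the scanner signal its probes gave 0.34 to 0.83, and blanks in the matrix can leave different probes on different arrays. Hmgcs1, an early enzyme of the pathway (0.73, adjusted p = 0.0422), passed by a narrow margin and did not hold without IPC+IRI 1, 3 or 4 or IRI+Hemin 2 or 3 (adjusted p of 0.0668 to 0.126). Hmgcs1 also turned to -0.63 in the authors' own log2 matrix, while its probes gave 0.64 to 0.73 in the scanner signal. In the other groups, Idi1 stood at 2.49 ± 0.32 in Control and 2.31 ± 0.49 in Hemin, and Dhcr7 at 1.15 ± 0.14 and 1.06 ± 0.04.

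A CCAAT box was looked for upstream of these genes, because it is a common element of sterol-regulated and of cell cycle promoters. In the 250 bases before the start site (RefSeq, GRCm38.p6), the letters CCAAT on either strand were present in 13 of the 13 cholesterol genes with a listed promoter, and in 37.5% of all 27025 promoters. The Idi1 promoter, 100 bases up to the start site at chr13:8885506-8885605 on the plus strand, is shown because it belongs to the called gene of the pathway with the largest difference. Capitals mark CCAAT, here read on the other strand.
Idi1: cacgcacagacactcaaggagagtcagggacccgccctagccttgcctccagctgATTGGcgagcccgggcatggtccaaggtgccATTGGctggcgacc

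The opposite direction was seen in the genes that burn fatty acids and break down amino acids, both functions of the proximal tubule. Fatty acid oxidation is controlled in the kidney by the nuclear receptor PPARα, and Cpt1a, Ehhadh, Pdk4 and the Cyp4a genes are among its known targets. Of 24 genes tested in this list 10 were lower in IPC+IRI (41.7%, beside 5.64% of all genes) and none was higher. Of the differences 23 were negative, with a median of -0.56. The count of 10 was 5 without IPC+IRI 3, 6 without IRI+Hemin 3, 2 without scaling between arrays and 4 with the 8 arrays fitted alone.

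Ehhadh (chr16:21761914-21761973), an enzyme of the peroxisomal beta-oxidation, had levels of 4.68, 5.11, 4.88 and 5.42 in IPC+IRI and 6.41, 6.33, 6.43 and 6.30 in IRI+Hemin. The hemin-treated arrays lay within a narrow band above all preconditioned arrays. The difference was -1.35 ± 0.17 (adjusted p = 0.000328), and it passed under each setting that tested it. The reference groups lay between, at 5.66 ± 0.30 in IRI and 5.56 ± 0.29 in Control.

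Smaller differences in the same direction passed for Acot1 (-0.88), a thioesterase, for Ppara itself (-0.78) and for the rate-limiting Cpt1a (-0.60), with adjusted p-values of 0.0283, 0.0322 and 0.0195. Acot1 did not hold without IPC+IRI 1, 2 or 3 or IRI+Hemin 1 or 3 (adjusted p of 0.0571 to 0.0786), Ppara without IPC+IRI 1 or 3 or IRI+Hemin 2 or 3 (adjusted p of 0.0771 to 0.108), nor Cpt1a without IPC+IRI 3 or IRI+Hemin 1 or 3 (adjusted p of 0.0508 to 0.0556). Cyp4a10, which hydroxylates fatty acids at their end, was lower at a difference of -1.08 (adjusted p = 0.0147). Pdk4, the kinase that spares glucose by shutting pyruvate dehydrogenase, was at 4.61 ± 0.60 in IPC+IRI (SD, n = 4), at 5.62 ± 0.11 in IRI+Hemin, at 5.40 ± 0.19 in IRI and at 1.40 ± 0.73 in Control. The Pdk4 difference of -1.02 (adjusted p = 0.0417) did not hold without IPC+IRI 1 or 3 or IRI+Hemin 1, 2, 3 or 4 (adjusted p of 0.0599 to 0.124). Fgf21, a hormone gene that PPARα is known to induce, was called lower, at -4.32, -5.37, -4.75 and -5.20 against -2.46, -3.33, -2.09 and -3.64 (-2.03 ± 0.54, adjusted p = 0.022), without overlap. Its call did not hold without IPC+IRI 2 or IRI+Hemin 1 or 3 (adjusted p of 0.0534 to 0.0644).

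In the list of gluconeogenesis and amino acid breakdown, 8 of 22 genes (36.4%, beside 5.64% of all genes) were lower in IPC+IRI and none was higher, with a median of -0.29. The count of 8 was 3 without scaling between arrays and 5 with the 8 arrays fitted alone or in the authors' log2 matrix. Hpd (NM_008277, chr5:123622237-123624360), a dioxygenase of tyrosine breakdown, had the smallest adjusted p of all called genes that are named here. Its levels were -0.61, -0.55, 0.10 and 0.10 in IPC+IRI and 1.89, 2.65, 2.63 and 2.10 in IRI+Hemin. No preconditioned array came near the hemin-treated ones. The difference was -2.56 ± 0.23 (5.9-fold, adjusted p = 3.26e-05), and the IRI arrays (1.38 ± 0.13) and Control arrays (1.11 ± 0.26) lay between. Gldc, the glycine decarboxylase of mitochondria, had levels of 2.57, 2.35, 1.73 and 2.99 against 3.98, 3.94, 3.83 and 3.81, without overlap (-1.48 ± 0.22, adjusted p = 0.000611). Both passed under each setting that tested them. Pyruvate carboxylase (Pcx, -0.91), proline dehydrogenase (Prodh, -0.67) and glutamate dehydrogenase (Glud1, -0.67) passed as well, with adjusted p-values of 0.0135, 0.0104 and 0.00343. Glucose-6-phosphatase (G6pc) had a difference of -0.51 that did not pass (adjusted p = 0.269). The proximal tubule markers, such as the phosphate transporter Slc34a1 (6.78 ± 0.21 against 6.56 ± 0.19), had a median difference of 0.04, and none of 12 passed (3 at an unadjusted limma p below 0.05).

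**Figure D3:**
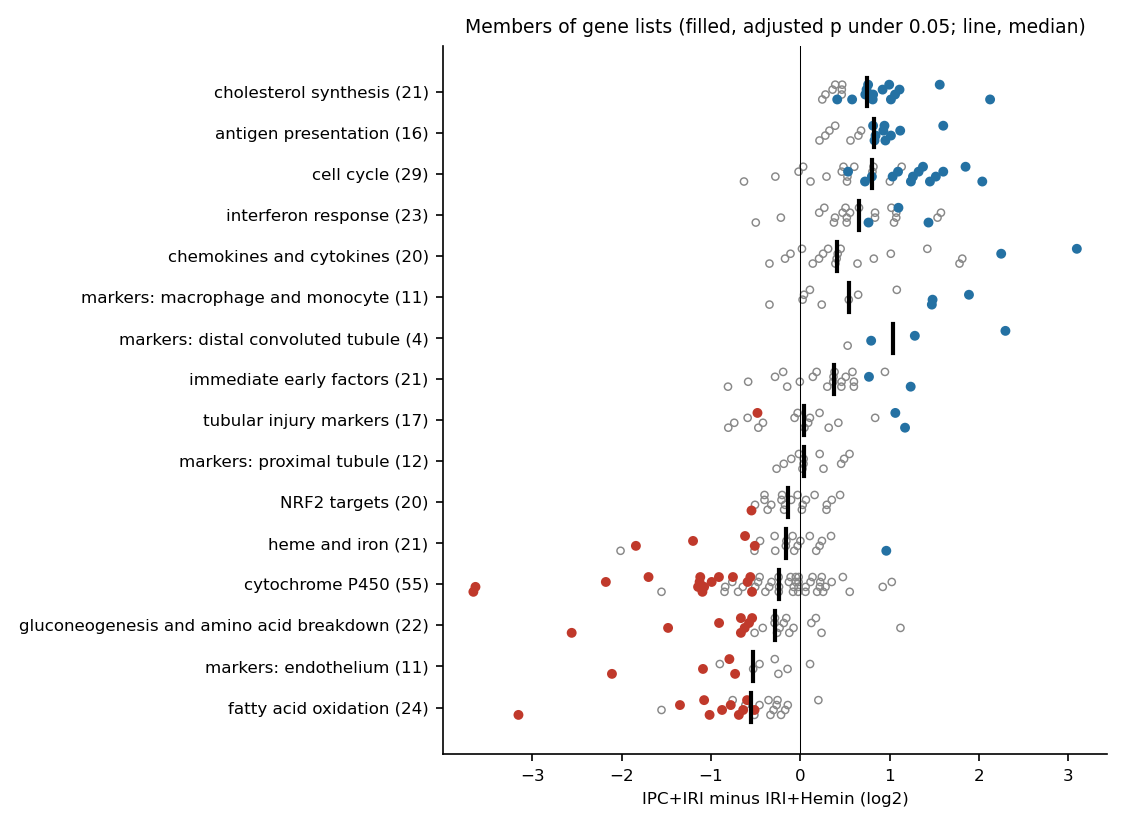
Difference between IPC+IRI and IRI+Hemin (log2, horizontal axis) for each tested member of 16 gene lists, with the number tested in brackets, filled points for members with an adjusted p below 0.05 and a black line for the median. Cholesterol synthesis, antigen presentation and cell cycle genes lie to the right, and fatty acid oxidation, endothelial and cytochrome P450 genes to the left.

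The cytochrome P450 family, which oxidises drugs, steroids and fatty acids, was lower in IPC+IRI in 15 of 55 genes tested (27.3%, beside 5.64% of all genes), out of 81 on the array, and higher in none. The count of 15 was 8 without scaling between arrays and 7 with the 8 arrays fitted alone, and the count of 0 reached 2 with no filter on dim genes. Among genes above background on all 8 arrays 11 members were lower. Some of the 15, such as Cyp2b10 and Cyp2b9, entered the test only through the group in which they were high, so the share is a description. Of the 15, 9 were called, and the median of the family was -0.24. At an unadjusted limma p below 0.05, 4 members were higher. Cyp2b10 (chr7:26702056-26702115), a drug-metabolising enzyme known to be induced through the receptor CAR, was well above background on all 4 IRI+Hemin arrays (-2.28, -4.11, -3.37 and -2.64) and on none of the IPC+IRI arrays. It was therefore at least 10.8-fold lower in the preconditioned kidneys (adjusted p = 0.000367). Cyp2b9, a near relative, was at -6.45, -4.74, -6.37 and -5.63 against -1.41, -3.18, -2.53 and -1.43, with 2 of the 4 preconditioned arrays above background and no overlap (-3.66 ± 0.60, adjusted p = 0.00143). Cyp2b13 gave -2.18 (adjusted p = 0.000989), but its 2 probes disagreed, at -3.74 and 0.09. The Cyp2b genes are near-identical in sequence and their probes may not tell them apart, although the counts above take each as a member. With the normexp background correction, whose offset shrinks the differences of dim genes, none of these 3 passed (adjusted p of 0.209, 0.0522 and 0.47). Among the brighter members, Cyp4a10 is given above, and Cyp27a1, which hydroxylates sterols, was lower at a difference of -0.91 (adjusted p = 0.00358).

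Transporters and conjugating enzymes act beside the cytochromes. Abcb1b, a drug efflux pump, was lower in IPC+IRI, with levels of -2.12, -1.95, -1.90 and -1.59 against -0.79, -0.53, -0.46 and -1.11 (-1.17 ± 0.21, adjusted p = 0.00269). Sult1a1, a sulfotransferase, was lower too, at 0.93, 0.79, 0.58 and 1.26 against 1.97, 1.97, 2.24 and 1.80 (-1.10 ± 0.19, adjusted p = 0.00165). Ugt2b36, a glucuronosyltransferase, was the member called higher, at 3.96, 4.70, 4.21 and 4.08 against 3.30, 3.03, 2.97 and 3.59 (1.02 ± 0.19, adjusted p = 0.00269). None of these 3 genes overlapped between the groups, and each passed under every setting. Ugt2b36 was at 4.80 ± 0.23 in IRI and 4.83 ± 0.20 in Control, above the means of both protected groups. Of the 38 conjugation enzymes tested, 2 were higher (5.26%) and 3 lower (7.89%), beside 6.42% and 5.64% of all genes. Of the 20 organic ion transporters, 2 were lower (Abcb1b and Slco2a1, -0.54, adjusted p = 0.0293) and none higher.

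Of 20 genes of the unfolded protein and integrated stress response 3 passed. Chac1 (chr2:119179990-119180049), an enzyme that degrades glutathione and a known target of ATF4 in the integrated stress response, was called lower in IPC+IRI. Its levels were 1.69, 2.16, 1.53 and 1.59 in IPC+IRI and 3.29, 2.85, 2.88 and 3.99 in IRI+Hemin, and the groups did not overlap. The difference was -1.51 ± 0.31 (adjusted p = 0.00516) and it passed under each setting. Chac1 was at 3.22 ± 0.46 in IRI and at -2.14 ± 0.30 in Control, so both protected groups remained far above uninjured kidneys. Asns, another gene that ATF4 drives, had a difference of -0.66 that did not pass (adjusted p = 0.17). Sdf2l1, which acts with a chaperone of the endoplasmic reticulum, was called higher, at 0.84, 0.10, 0.74 and 0.08 against -0.21, -1.68, -1.28 and -0.89 (1.46 ± 0.30, adjusted p = 0.00558). Pdia4, a disulfide isomerase of the same compartment, passed narrowly (0.68, adjusted p = 0.0449) and did not hold without IPC+IRI 1, 2, 3 or 4 or IRI+Hemin 1, 2 or 3 (adjusted p of 0.0546 to 0.122). The other 17 of the 20 genes did not pass.

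The letters TGATGCAA, the core of the element to which ATF4 binds with C/EBP proteins, were found on either strand in 2 of 18 genes of this list with a listed promoter (Chac1 and Herpud1) and in 0.918% of all promoters. The Chac1 stretch is shown as the called member that holds it. It covers chr2:119350992-119351091 (GRCm38.p6, plus strand), from 250 to 151 bases before the start site, and capitals mark TGATGCAA read on the other strand.
Chac1: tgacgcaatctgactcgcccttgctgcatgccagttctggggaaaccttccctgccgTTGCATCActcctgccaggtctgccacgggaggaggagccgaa

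Heat shock proteins were higher in 5 of 18 genes (27.8%, beside 6.42% of all genes) and lower in none. The count of 5 was 4 without IPC+IRI 1 or 3 and 3 with any other array left out, 2 with the normexp background correction or in the authors' log2 matrix, 3 with no filter on dim genes, and 1 without scaling between arrays or with the 8 arrays fitted alone. They included the collagen chaperone Serpinh1, at 4.02, 3.28, 4.11 and 3.25 against 2.69, 2.56, 2.48 and 3.03 (0.98 ± 0.20, adjusted p = 0.00593), and the mitochondrial co-chaperonin Hspe1, at 4.81, 4.33, 4.60 and 4.56 against 4.12, 3.35, 3.80 and 3.70 (0.83 ± 0.18, adjusted p = 0.00767). Neither of these overlapped between the groups. Dnaja1, a co-chaperone, was higher by 0.61 (adjusted p = 0.0147), and Hspa4 and Bag3 passed with differences of 0.34 and 0.35 (adjusted p of 0.0497 and 0.046). The median of the list was 0.05. Among p53 and its targets, Sesn1, a stress-inducible regulator of growth signalling, was higher by 0.71 (adjusted p = 0.00358), with no overlap. Trp53inp1, Zmat3 and Mdm2 passed in the same direction (0.69, 0.44 and 0.34, adjusted p of 0.0327, 0.00944 and 0.0447), whereas Trp53 itself was lower at a difference of -0.46 (adjusted p = 0.0499) and did not hold without IPC+IRI 2, 3 or 4 or IRI+Hemin 1, 2 or 4 (adjusted p of 0.0812 to 0.131). The other 14 of 19 genes of that list did not pass, and the 4 that were higher became 2 without IPC+IRI 1, 2 or 4 or IRI+Hemin 1. Over all 20 alternative settings this count ranged from 0 to 6.

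Nfe2l2, which encodes the oxidative stress factor NRF2, was lower in IPC+IRI at a difference of -0.55 (adjusted p = 0.0269), at 2.19, 2.89, 2.26 and 3.01 against 2.89, 3.31, 3.34 and 3.02. The groups overlapped, and the result did not hold without IPC+IRI 1 or 3 or IRI+Hemin 2 or 3 (adjusted p of 0.0735 to 0.0824). Its 3 probes, all above background on all 8 arrays, gave -0.66, -0.70 and 0.27, and with the mean of log2 values over probes it did not pass (adjusted p = 0.0691). None of the other 19 genes tested in the NRF2 list passed. Nqo1 differed by -0.37, Gclm by 0.44 and Gclc by -0.40 (adjusted p of 0.27, 0.128 and 0.295), and the median of the list was -0.14. Of 25 genes of glycolysis and the response to low oxygen, 4 were lower in IPC+IRI by less than 2-fold. They were Bnip3, a mitophagy receptor (-0.59, adjusted p = 0.00167), Egln3 (-0.53), which marks HIF for removal, and the HIF subunits Epas1 (-0.49) and Hif1a (-0.46). The count of 4 was 2 to 3 with arrays left out and 0 to 5 over all 20 alternative settings. Epas1 did not hold without IPC+IRI 1 or 4 or IRI+Hemin 2 (adjusted p of 0.056 to 0.108). It turned to 0.82 in the authors' log2 matrix, while its probes gave -0.65 to -0.34 in the scanner signal. Hif1a did not hold without IPC+IRI 1, 3 or 4 or IRI+Hemin 1, 2 or 3 (adjusted p of 0.0587 to 0.115). Among the immediate early factors, Fosl2 (0.77, adjusted p = 0.00254) and Nr4a2 (1.23, adjusted p = 0.0375) were higher in IPC+IRI, the latter not without IPC+IRI 2 or 3 or IRI+Hemin 1, 2 or 3 (adjusted p of 0.0534 to 0.106). Egr1, Fos and Jun differed by 0.95, 0.58 and 0.60 and did not pass (adjusted p of 0.265, 0.605 and 0.123).

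Genes that prepare and present antigens were higher in the preconditioned kidneys in 9 of 16 tested (56.2%, beside 6.42% of all genes). In this pathway the immunoproteasome cuts proteins, the transporter made of Tap1 and Tap2 moves the fragments into the endoplasmic reticulum, and class I or class II molecules carry them to the surface. All 16 genes of the list had positive differences and none was lower, with a median of 0.82. The number that passed depended on the arrays: it was 14 without IPC+IRI 1, 5 without IPC+IRI 2, and 4 without IPC+IRI 3, IRI+Hemin 2 or IRI+Hemin 3. It was 1 without scaling between arrays, 2 with the 8 arrays fitted alone and 5 in the authors' log2 matrix.

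Tap1 (chr17:34330854-34330913) had levels of -1.99, -0.46, -0.33 and -0.72 in IPC+IRI and -2.17, -2.81, -2.88 and -2.04 in IRI+Hemin. Replicate 1 of IPC+IRI lay near the hemin-treated arrays and the other 3 well above them, with no overlap (1.60 ± 0.34, adjusted p = 0.00684). Tap2 was higher by 0.94 ± 0.17 (adjusted p = 0.00221), at 0.20, 0.47, 0.79 and 0.48 against -0.29, -0.73, -0.67 and -0.14, also without overlap. H2-K1, a class I heavy chain, was at 4.64, 5.06, 5.25 and 4.94 against 4.21, 4.00, 4.03 and 4.39 (0.81 ± 0.14, adjusted p = 0.00146). The class I and class II chains are a multigene family whose probes may share signal. Of the immunoproteasome subunits, Psmb10 was higher by 1.01 (adjusted p = 0.0129), and Psmb9 (1.12, adjusted p = 0.0275) and Psmb8 (0.93, adjusted p = 0.0352) passed too. Psmb9 did not hold without IPC+IRI 2 or 3 or IRI+Hemin 1, 2 or 3 (adjusted p of 0.0545 to 0.0827), and Psmb8 not without IPC+IRI 2 or 3 or IRI+Hemin 1, 2 or 3 (adjusted p of 0.0578 to 0.108). In all 3 subunits the lowest IPC+IRI array was replicate 1, which lay within the hemin-treated range. The class II chain H2-Ab1 passed at 0.83 (adjusted p = 0.0467), not without IPC+IRI 2 or 3 or IRI+Hemin 1, 2, 3 or 4 (adjusted p of 0.0615 to 0.118).

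Genes induced by interferon had a median difference of 0.66, and 3 of 23 were higher, beside 6.42% of all genes, and none was lower. The count of 3 was 7 without IPC+IRI 1, 2 or 3 with any other array left out and 0 without scaling between arrays. These were Irgm1 and Igtp, GTPases that guard the cell against intracellular pathogens, and the factor Irf1. Irgm1 was at 1.16, 2.10, 1.73 and 2.04 against 0.81, 0.57, 0.96 and 0.30, without overlap (1.10 ± 0.26, adjusted p = 0.0112). Irf1 was higher by 0.76 (adjusted p = 0.0136), and both held without any single array. Igtp, at 1.63, 3.50, 2.69 and 3.02 against 1.23, 1.86, 0.74 and 1.28, was higher by 1.43 ± 0.45 (adjusted p = 0.0444) and did not hold without IPC+IRI 2, 3 or 4 or IRI+Hemin 1, 3 or 4 (adjusted p of 0.0711 to 0.122). Gbp3, a related GTPase, differed by 1.57 and did not pass (adjusted p = 0.0615). Mpa2l (chr5:105700081-105700140), now named Gbp6 and of the same family, was called higher, at -3.13, -0.53, -1.59 and -1.81 against -4.35, -3.38, -4.63 and -4.27, without overlap (2.39 ± 0.55, adjusted p = 0.0104). Its level was -2.13 ± 1.19 in IRI and -1.70 ± 0.83 in Control.

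The interferon-stimulated element was searched for as GAAANNGAAA on either strand. It was present in 11 of 17 interferon genes with a listed promoter (64.7%) and in 3.46% of all promoters. The Igtp promoter is shown because Igtp is the called gene of the list with the largest difference. It covers the 100 bases up to the start site, chr11:58199456-58199555 (GRCm38.p6, plus strand), with the element in capitals.
Igtp: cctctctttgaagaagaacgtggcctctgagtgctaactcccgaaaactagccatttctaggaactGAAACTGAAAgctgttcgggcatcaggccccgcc

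Of 20 chemokines and cytokines tested, Ccl5 and Cxcl9 were higher in IPC+IRI. Ccl5 (chr11:83339296-83339502), which attracts T cells and monocytes, was at -1.20, 0.46, 1.79 and -0.62 in IPC+IRI and -2.38, -2.21, -2.63 and -1.35 in IRI+Hemin. The groups did not overlap, but the lowest IPC+IRI array lay close to the highest IRI+Hemin array. The difference was 2.25 ± 0.64 (adjusted p = 0.0302), and it did not hold without IPC+IRI 2 or 3 or IRI+Hemin 1, 2 or 3 (adjusted p of 0.0607 to 0.0927). Ccl5 was at 0.39 ± 1.60 in IRI and -1.32 ± 0.47 in Control. Cxcl9, a chemokine induced by interferon gamma, was higher by 3.09 ± 0.89 (adjusted p = 0.0313), with 1 of the 4 hemin-treated arrays well above background. Cxcl9 therefore entered the test only through IPC+IRI, and its p is a description. It did not hold without IPC+IRI 2 or 3 or IRI+Hemin 1, 3 or 4 (adjusted p of 0.0504 to 0.0973). The groups overlapped for Cxcl9 (exact permutation p = 0.0857). The other 18 did not pass. Il1b differed by 1.42, Cxcl10 by 0.82 and Il6 by 0.64 (adjusted p of 0.0726, 0.296 and 0.374). Of 21 Toll and NOD receptor genes, Tlr3 (0.87, adjusted p = 0.0178) and Nod2 (0.55, adjusted p = 0.0129) were higher, and Tlr2 did not pass (-0.36, adjusted p = 0.446). Tlr3 did not hold without IPC+IRI 1 or IRI+Hemin 2 (adjusted p of 0.0567 to 0.0669), and its 2 probes gave 0.25 and 1.84.

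Of 11 macrophage and monocyte markers 3 were higher in IPC+IRI (27.3%, beside 6.42% of all genes). The count of 3 was 5 without IPC+IRI 1, 1 without IPC+IRI 2 or 3, 1 without scaling between arrays and 0 with the 8 arrays fitted alone. Lyz2 (chr10:116714450-116719234), the lysozyme of macrophages and monocytes, was at 2.09, 3.80, 4.16 and 2.81 in IPC+IRI and 1.43, 2.36, 1.16 and 2.02 in IRI+Hemin. Replicates 2 and 3 of IPC+IRI were the highest, replicate 1 was within the hemin-treated range, and the difference was 1.47 ± 0.38 (adjusted p = 0.0176, but 0.0542 to 0.0572 without IPC+IRI 2 or 3 or IRI+Hemin 3). Lyz1, whose probes may share signal with Lyz2, was higher by 1.89 ± 0.36 (adjusted p = 0.0033), and the monocyte receptor Ccr2 by 1.48 (adjusted p = 0.03, but 0.0682 to 0.0886 without IPC+IRI 2, 3 or 4 or IRI+Hemin 1 or 4). Emr1, which encodes F4/80, did not pass (0.65, adjusted p = 0.35). Their summed linear level ranged from 9.23 to 35.8 in IPC+IRI, from 7.70 to 13.7 in IRI+Hemin and from 7.45 to 9.86 in IRI. Aif1, a calcium-binding protein of macrophages, was called higher at -1.38, -0.58, 0.55 and -1.44 against -3.25, -1.74, -3.57 and -1.89, without overlap (1.90 ± 0.42, adjusted p = 0.00815). Adam8, a leukocyte surface protease, was called higher as well (1.71 ± 0.38, adjusted p = 0.00822).

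Among lymphocyte markers, the T cell receptor component Cd3d was higher by 2.02 ± 0.47 (adjusted p = 0.0104), with 2 of the 4 hemin-treated arrays well above background, and Cd8a by 0.92 (adjusted p = 0.014). Cd3d thus entered the test only through IPC+IRI, and its p is a description. Cd3e, the partner of Cd3d, differed by 0.30 and did not pass (adjusted p = 0.44), and neither did the other 3 of 6 T cell markers. Nkg7 of natural killer cells (1.34, adjusted p = 0.045) and Ltf of neutrophils (1.36, adjusted p = 0.0263) passed, the former not without IPC+IRI 2 or 3 or IRI+Hemin 1, 2 or 3 (adjusted p of 0.0735 to 0.133) and the latter not without IPC+IRI 2 or 3 or IRI+Hemin 2 or 3 (adjusted p of 0.0521 to 0.0798). Ltf was well above background on 3 IPC+IRI arrays and 1 IRI+Hemin array, so it entered the test only through IPC+IRI, and its p is a description. S100a8, an abundant neutrophil gene, differed by 1.04 and did not pass (adjusted p = 0.31). The summed neutrophil markers ranged from 6.60 to 20.3 in IPC+IRI and from 2.34 to 10.1 in IRI+Hemin. The share of these markers in the differences of the interferon and antigen presentation genes was not tested.

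**Figure D4:**
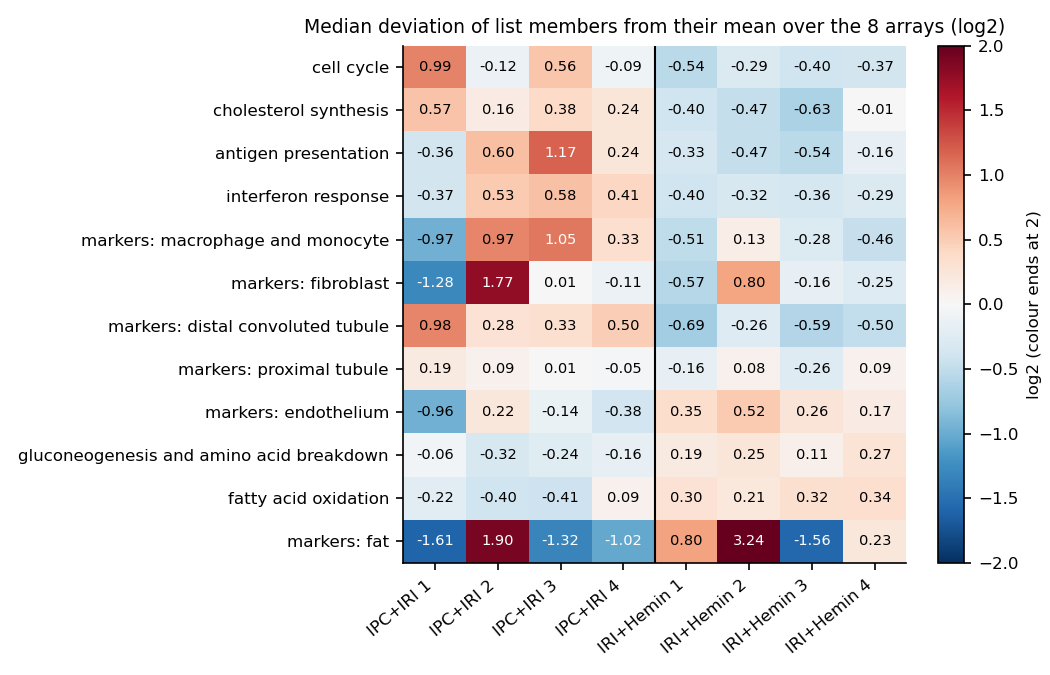
Median deviation (log2, by colour and printed in each cell) of the tested members of 12 gene lists from their own mean over the 8 arrays, for the 4 IPC+IRI and the 4 IRI+Hemin arrays. Replicate 1 of IPC+IRI is highest for the cell cycle list (0.99) and lowest for macrophage (-0.97) and endothelial markers (-0.96) within its group, while replicates 2 and 3 carry the high antigen presentation values (0.60 and 1.17).

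The preconditioned arrays differed among themselves. Replicate 1 of IPC+IRI stood apart in several lists, with a median deviation of the cell cycle genes of 0.99, of the macrophage markers of -0.97 and of the antigen presentation genes of -0.36. Replicates 2 and 3 had antigen presentation deviations of 0.60 and 1.17. Cholesterol synthesis, by contrast, was positive on all 4 IPC+IRI arrays (0.16 to 0.57) and negative on all 4 IRI+Hemin arrays (-0.63 to -0.01). Markers of fat, which can adhere to a dissected kidney, ranged from 5.38 to 48.7 summed in IPC+IRI and from 18.3 to 75.2 in IRI+Hemin. All 7 fat markers tested had negative differences, with a median of -1.27. None of the 7 passed, and none had an unadjusted limma p below 0.05. Cfd (adipsin) ranged from -7.01 to 4.54 in IPC+IRI and from -5.07 to 4.31 in IRI+Hemin.

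Of 29 cell cycle genes tested 14 were higher after preconditioning (48.3%, beside 6.42% of all genes), 11 were called and none was lower, with a median of 0.81. Of the 14, Top2a entered the test only through IPC+IRI, where it was high, so the share is a description. The count moved with single arrays: it was 5 without IPC+IRI 1, 6 without IPC+IRI 3, 7 without IRI+Hemin 1 or IRI+Hemin 2, 20 without IPC+IRI 2 and 18 without IPC+IRI 4. It was 4 without both IPC+IRI 1 and IRI+Hemin 4, 8 in the authors' log2 matrix, 2 with the normexp background correction, 3 without scaling between arrays, and 0 with the 8 arrays fitted alone. Mki67 (chr7:142881591-142886071), which encodes the proliferation antigen Ki-67, was at 0.20, -2.40, -0.62 and -2.34 in IPC+IRI and -3.51, -3.36, -3.22 and -3.21 in IRI+Hemin. Replicates 1 and 3 were far above the hemin-treated arrays, and replicates 2 and 4 were above them by a smaller step, with no overlap. The difference was 2.04 ± 0.48 (adjusted p = 0.0117).

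Prc1, which bundles the microtubules of the dividing spindle, had its highest levels on the same arrays, at -0.32, -2.32, -1.08 and -2.26 against -3.51, -3.21, -3.09 and -3.57 (1.85 ± 0.36, adjusted p = 0.00416). Mki67 and Prc1 held without any single array. Rrm2, the ribonucleotide reductase subunit that feeds DNA synthesis, was higher by 1.60 (adjusted p = 0.019, but 0.0508 to 0.0551 without IPC+IRI 1 or IRI+Hemin 4). Top2a, a topoisomerase, was well above background on all preconditioned and on no hemin-treated array, which makes it at least 2.51-fold higher in IPC+IRI (adjusted p = 0.0154, but 0.0505 without IPC+IRI 3). The cyclins Ccnb2 (1.45) and Ccna2 (1.37) and the chromosomal passenger protein Birc5 (1.32) were called with adjusted p-values of 0.0356, 0.0307 and 0.035. They did not hold without IPC+IRI 1 or 3 or IRI+Hemin 1, 2 or 4 (adjusted p of 0.0636 to 0.106) for Ccnb2, IPC+IRI 1 or 3 or IRI+Hemin 2 or 4 (adjusted p of 0.0624 to 0.0856) for Ccna2 and IPC+IRI 1 or 3 or IRI+Hemin 1 or 4 (adjusted p of 0.0795 to 0.11) for Birc5. Of the replication genes, the helicase subunits Mcm3 (0.80, adjusted p = 0.00468) and Mcm2 (0.53, adjusted p = 0.00985) passed, and Pcna, which also serves DNA repair, did not (-0.28, adjusted p = 0.129). Control kidneys had a Mki67 level of -1.85 ± 0.67 and IRI kidneys of -2.64 ± 0.29.

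In the 250 bases before the start site, CCAAT was found in 19 of 24 cell cycle genes with a listed promoter (79.2%, against 37.5% of all). TTTGAA, the core of the cell cycle homology region, was found in 6 of 24 (25.0%, against 18.3%). The Mki67 stretch is shown because it holds both and belongs to the gene of the list with the largest difference. It covers chr7:135716447-135716546 on the minus strand (GRCm38.p6), from 167 to 68 bases before the start site, with both motifs in capitals.
Mki67: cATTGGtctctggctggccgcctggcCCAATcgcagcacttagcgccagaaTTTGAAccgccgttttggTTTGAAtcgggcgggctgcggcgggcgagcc

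Of the plasma proteins, the fibrinogen genes Fga and Fgg were called lower in the preconditioned kidneys. Fga was at -1.68, -1.61, -0.74 and -0.17 against 2.02, 0.65, 1.51 and -0.20 (-2.05 ± 0.44, adjusted p = 0.00658), and Fgg at 1.43, 1.17, 2.86 and 2.53 against 5.45, 3.56, 4.23 and 2.43 (-1.92 ± 0.48, adjusted p = 0.0147). In both genes replicate 4 of IRI+Hemin lay within the preconditioned range. Fgb, the remaining chain, differed by -0.71 and did not pass (adjusted p = 0.312). Lbp, which presents bacterial lipopolysaccharide, was lower at a difference of -1.03 (adjusted p = 0.0333, but 0.051 to 0.102 without IPC+IRI 1 or 4 or IRI+Hemin 1, 2 or 3), and so was Saa1, an acute phase apolipoprotein, at -0.86 (adjusted p = 0.00499). In the authors' log2 matrix the Saa1 difference was -0.05 and did not pass (adjusted p = 0.928), while its probes gave -1.99 and -0.73 in the scanner signal. C1r, a protease of the complement cascade, was higher by 1.00 (adjusted p = 0.0144). The other 14 of 19 genes of this list did not pass. Of 4 liver markers tested, the lipoprotein Apoh was lower at a difference of -1.43 (adjusted p = 0.0281, but 0.0514 to 0.0699 without IPC+IRI 1, 3 or 4 or IRI+Hemin 1 or 4), Apoa2 was higher by 0.77 (adjusted p = 0.0221), and albumin (Alb, -0.63) did not pass (adjusted p = 0.0648). The summed liver markers were at 1.50 to 2.82 in IPC+IRI and 3.29 to 5.11 in IRI+Hemin, without overlap, and their part in the difference of the fibrinogen genes was not tested.

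Of 27 genes of matrix and repair tested, 3 were higher in IPC+IRI (11.1%, beside 6.42% of all genes) and 1 was lower, 16 had negative differences, and the median was -0.13. The count of 3 was 1 without IPC+IRI 2 or 3 or IRI+Hemin 1 or 3, and 0 with the 8 arrays fitted alone. Col1a1 and Col3a1, the fibrillar collagens of fibroblasts, were higher in IPC+IRI by 1.69 ± 0.38 (adjusted p = 0.00867) and 1.51 ± 0.44 (adjusted p = 0.0345). In both genes replicates 2 and 3 were the high ones, at -0.96, 1.08, 0.93 and -0.88 for Col1a1 against -1.83, -1.52, -2.14 and -1.10 in IRI+Hemin. Col3a1 overlapped between the groups and did not hold without IPC+IRI 2 or 3 or IRI+Hemin 1, 3 or 4 (adjusted p of 0.0611 to 0.102). The 2 Col1a1 probes above background gave 0.76 and 1.77, and of the 3 Col3a1 probes 1 was above background, and with the mean of log2 values over probes neither gene passed. The 6 fibroblast markers, which include both, had 3 positive and 3 negative differences, and summed they ranged from 2.33 to 13.8 in IPC+IRI and from 4.60 to 9.68 in IRI+Hemin. Fibronectin (Fn1) was higher by 0.88 (adjusted p = 0.0324, but 0.0541 to 0.0929 without IPC+IRI 2 or 3 or IRI+Hemin 1, 2, 3 or 4), and Mmp2 differed by 1.20 and did not pass (adjusted p = 0.0615). In the other direction, Col4a2 of the basement membrane was lower at a difference of -0.70 (adjusted p = 0.0173, but 0.0541 to 0.0591 without IPC+IRI 1 or IRI+Hemin 2). Col13a1 (chr10:61301277-61330585), a transmembrane collagen, was called lower at -4.13, -2.65, -2.45 and -2.64 against -0.46, -0.30, -0.18 and -1.91, without overlap (-2.26 ± 0.37, adjusted p = 0.00146), under each setting. Its level was -1.88 ± 0.29 in IRI and -3.44 ± 0.39 in Control.

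Of 11 endothelial markers 4 were lower in the preconditioned kidneys (36.4%, beside 5.64% of all genes). Sox18 (chr2:181404789-181404848), a transcription factor of endothelial cells, was at -4.94, -2.84, -3.89 and -2.99 in IPC+IRI and -1.74, -1.08, -1.13 and -2.28 in IRI+Hemin, with no overlap (-2.11 ± 0.45, adjusted p = 0.00655). It was at -0.92 ± 0.93 in IRI and 0.18 ± 0.46 in Control, above the means of both protected groups. Plvap, which forms the diaphragms of fenestrated capillaries, was lower at a difference of -1.09 (adjusted p = 0.0269), and so were the angiopoietin receptor Tek and its relative Tie1 at -0.79 and -0.73 (adjusted p of 0.0368 and 0.0349). Plvap did not hold without IPC+IRI 1 or IRI+Hemin 1 or 2 (adjusted p of 0.052 to 0.0633), Tek without IPC+IRI 1 or 4 or IRI+Hemin 1, 2 or 3 (adjusted p of 0.0853 to 0.113), nor Tie1 without IPC+IRI 1 or 4 or IRI+Hemin 1, 2 or 4 (adjusted p of 0.0517 to 0.107). Pecam1, the general endothelial marker, differed by -0.90 and did not pass (adjusted p = 0.0917). None of the 11 was higher and 10 had negative differences, with a median of -0.53. The count was 1 without IPC+IRI 1, IRI+Hemin 1 or IRI+Hemin 2, 2 without IPC+IRI 4, and 7 without IPC+IRI 2. It was 2 in the authors' log2 matrix or with no filter on dim genes, 1 with the normexp background correction or without scaling between arrays, and 0 with the 8 arrays fitted alone. The summed level ranged from 13.5 to 35.4 in IPC+IRI, with the lowest deviation on replicate 1, and from 30.4 to 37.6 in IRI+Hemin. In the renin-angiotensin system, renin (Ren1) was lower at a difference of -1.14 (adjusted p = 0.0404, but 0.0709 to 0.11 without IPC+IRI 1, 2 or 3 or IRI+Hemin 1, 2 or 3), and Mas1, the receptor for angiotensin-(1-7), was higher by 1.32 ± 0.27 (adjusted p = 0.00533), without overlap.

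Of 4 markers of the distal convoluted tubule, which reabsorbs sodium, calcium and magnesium, 3 were higher in IPC+IRI. Pvalb (chr15:78021647-78021706), a calcium-binding protein of its first part, was at -0.12, -0.63, -0.41 and -0.64 against -3.39, -1.89, -2.85 and -2.84. Every preconditioned array lay above every hemin-treated one by more than 1 unit (2.29 ± 0.28, 4.91-fold, adjusted p = 0.000267). The IRI level of Pvalb was -1.07 ± 0.35, that of Control -0.78 ± 0.26 and that of Hemin -1.18 ± 0.48. Calb1 (chr4:15832543-15832602), the calbindin that carries calcium across the cell, was at 6.18, 5.44, 5.37 and 5.57 in IPC+IRI, while the IRI+Hemin arrays lay between 4.16 and 4.78, without overlap (1.28 ± 0.21, adjusted p = 0.00143). Slc8a1 (chr17:81666267-81844261), the sodium/calcium exchanger through which this segment passes calcium to the blood, was called higher too, at -0.27, -1.14, -1.19 and -1.25 against -2.93, -2.31, -3.03 and -2.87 (1.82 ± 0.23, adjusted p = 0.000291). Pvalb, Calb1 and Slc8a1 passed under each setting, and 6 of the 7 Slc8a1 probes gave differences from 1.40 to 2.43, while the last, not above background on any array, gave 0.05. Trpm6, the magnesium channel, was higher by 0.79 (adjusted p = 0.00283), but in the authors' log2 matrix its difference was near 0 and did not pass (adjusted p = 0.995). In the scanner signal its probe above background gave 0.79 and the other, not above background, 0.99. The sodium chloride cotransporter Slc12a3 differed by 0.53 and did not pass (adjusted p = 0.108).

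Of 6 markers of acid-secreting intercalated cells 3 were higher in IPC+IRI. Atp6v1g3, a subunit of their proton pump, was at 2.21, 1.74, 1.89 and 1.93 against 1.05, 1.21, 1.15 and 0.91, without overlap (0.86 ± 0.15, adjusted p = 0.00173), under each setting. Slc4a1, their chloride/bicarbonate exchanger and also a red cell protein, was higher by 1.18 (adjusted p = 0.0295, but 0.0602 to 0.103 without IPC+IRI 1, 3 or 4 or IRI+Hemin 2 or 3), and Atp6v0d2 by 0.53 (adjusted p = 0.0183). The other 3 did not pass, and without IPC+IRI 1 the count of 3 was 1. The red cell gene Hba-a1 had a negative difference that did not pass (-1.36, adjusted p = 0.103). None of the 6 thick ascending limb, 7 principal cell and 6 podocyte markers passed, with medians of 0.20, 0.07 and -0.11. At an unadjusted p below 0.05 in the same limma fit, 1 thick ascending limb marker, 1 principal cell marker and 0 podocyte markers were counted.

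Markers of tubular injury gave no common direction. Of 17 genes tested 2 were higher in IPC+IRI, 1 was lower, and the median was 0.05. Havcr1, which encodes kidney injury molecule-1, was at 0.97, 0.99, 2.81 and 1.62 in IPC+IRI and 0.23, 0.77, 0.94 and -0.23 in IRI+Hemin. The groups did not overlap, and the highest array was replicate 3 of IPC+IRI (1.17 ± 0.33, adjusted p = 0.0273). The call did not hold without IPC+IRI 3 or 4 or IRI+Hemin 1 or 4 (adjusted p of 0.0508 to 0.0749). Cd44, a matrix receptor of injured tubules and of leukocytes, was higher by 1.06 (adjusted p = 0.0288, but 0.0532 to 0.0867 without IPC+IRI 2, 3 or 4 or IRI+Hemin 1 or 3). Krt8, a keratin of simple epithelia, was lower at a difference of -0.48 (adjusted p = 0.00782), at 6.28 ± 0.15 against 6.76 ± 0.15, with 6.59 ± 0.14 in IRI and 3.80 ± 0.12 in Control. Lcn2, which encodes NGAL, had levels of -1.03, -0.90, -0.20 and -0.50 against 0.47, -0.01, 0.69 and -0.83, with overlap, and did not pass (-0.74, adjusted p = 0.271). Sox9 and Vcam1 differed by -0.81 and 0.84 and did not pass (adjusted p of 0.13 and 0.109).

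Of the 10 called genes with the largest difference in each direction, taken among genes that did not overlap and were detected above background on each of the 8 arrays, some belong to none of these groups. Trim55 (chr3:19544483-19544542), a muscle RING finger protein, was lower in IPC+IRI, at -2.56, -2.29, -1.86 and -3.66 against -0.04, 0.04, 0.01 and -1.72. Of the hemin-treated arrays, 3 lay close to 0 and replicate 4 lay just above the highest preconditioned array (-2.16 ± 0.48, adjusted p = 0.00826). Its level in IRI was -4.60 ± 0.32, below the means of both protected groups. Upp2 (chr2:58632424-58632483), a uridine phosphorylase, was lower at -3.52, -3.08, -3.58 and -2.53 against -0.90, -0.42, -0.16 and -2.05 (-2.29 ± 0.50, adjusted p = 0.0071), without overlap. Cml5 (chr6:85767345-85767404), now Nat8f5 and related to N-acetyltransferases, was lower at 2.10, 2.42, 2.04 and 1.48 against 4.42, 3.40, 3.94 and 4.39 (-2.03 ± 0.36, adjusted p = 0.00244). Tgm1 (chr14:56319032-56319091), a transglutaminase that cross-links proteins, was lower at 0.50, 1.15, 1.23 and 0.37 against 2.90, 2.70, 2.77 and 2.27 (-1.85 ± 0.21, adjusted p = 0.000267), and it was at 2.08 ± 0.14 in IRI and 0.49 ± 0.25 in Control. Cml5 and Tgm1 passed under each setting, and Upp2 under each that tested it. Probes A_51_P174350 and A_51_P320477, which carry no gene name here, were lower at a difference of -1.90 and -1.84 (adjusted p of 0.000477 and 0.00932).

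Another set was well above background on all 4 arrays of one group and on no array of the other. For each the bound compares the bright group with the lowest signal above background on each dim array, or with the dim signal where that was higher. Higher in IPC+IRI were 1500002O10Rik, now Gad1os, by at least 4.54-fold, the transcripts AK044390 and AK080995 by at least 4.42-fold and 4.42-fold, the condensin subunit Ncapg by at least 4.18-fold and the olfactory receptor Olfr1181 by at least 3.55-fold. Their adjusted p-values were 0.000367, 0.0271, 0.0104, 0.00585 and 0.00422, and AK044390 did not hold without IPC+IRI 2, 3 or 4 or IRI+Hemin 2 (adjusted p of 0.0503 to 0.0934). AK080995 overlapped between the groups. Such genes, among them Cyp2b10 and Top2a, entered the test only through the group in which they were high, so their p-values are a description. Beside Cyp2b10, BB517238 and AF044174 were at least 5.73-fold and 4.71-fold lower in IPC+IRI (adjusted p of 0.00142 and 0.00754), and the transglutaminase Tgm5 at least 3.36-fold lower (adjusted p = 0.0432, but 0.0536 to 0.118 without IPC+IRI 1, 2, 3 or 4 or IRI+Hemin 2, 3 or 4). Rgs7, with the same pattern of detection, did not pass (adjusted p = 0.0624). None of the 9 of these genes that passed, Cyp2b10 included, did so with the normexp background correction, with adjusted p-values from 0.209 to 0.72. The offset in that correction shrinks the differences of dim genes, so this failure says little about them.

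The genes called between IRI or Hemin and Control, on the other arrays, were then followed through the comparison. Control, IRI and Hemin each lay on their own slide, and Control and Hemin were scanned on different days. In these calls slide, and for Hemin also scan day, cannot be told apart from treatment. In IRI vs Control, 1058 genes (5.97% of 17725) were called higher and 2534 (14.3%) lower. Of the genes higher in IRI, 1041 were tested between the protections, of which 26 (2.50%) were called higher in IPC+IRI and 19 (1.83%) lower, beside 1.67% and 1.08% of all genes. Their median was 0.01. Of the genes lower in IRI, 2110 were tested, of which 65 (3.08%) were called higher and 51 (2.42%) lower, with a median of 0.02. Calls went both ways in both sets.

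In Hemin vs Control, 407 genes (2.19% of 18583) were called higher and 1112 (5.98%) lower. Of the genes higher with hemin alone, 359 were tested between the protections. Of these 9 (2.51%) were called higher in IPC+IRI and 6 (1.67%) lower, with a median of 0.11, and 58.8% of their differences were positive, beside 49.4% over all genes. Of the genes lower with hemin alone, 797 were tested, of which 22 (2.76%) were called higher in IPC+IRI and 38 (4.77%) lower, with a median of -0.05. The Hemin slide was scanned on the same day as the IPC+IRI slide and on another day than the Control slide, and the part of the scan day in this was not tested.

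**Figure D5:**
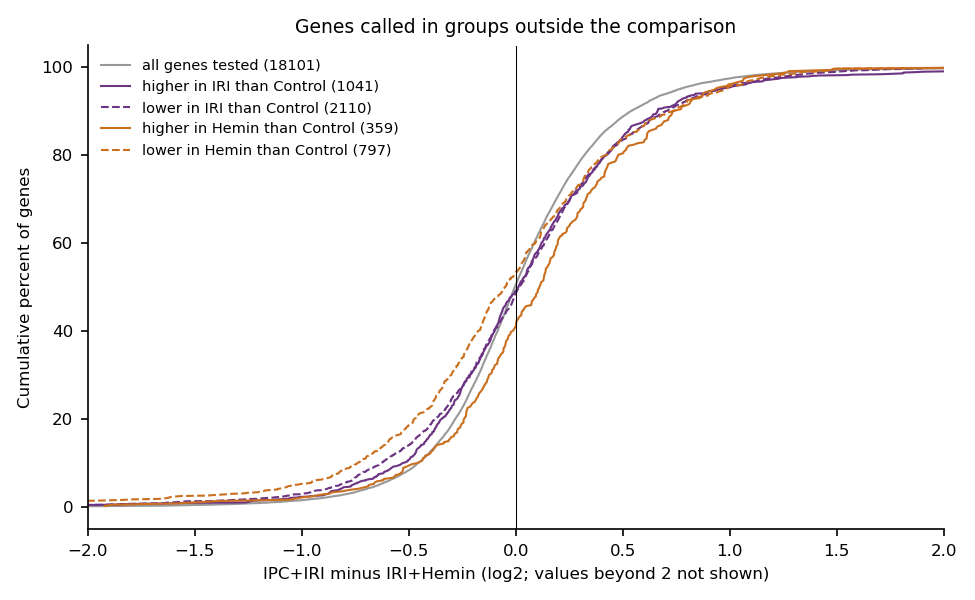
Cumulative percent of genes (vertical axis) against the difference between IPC+IRI and IRI+Hemin (log2, horizontal axis, values beyond 2 not shown) for all 18101 genes tested and for those called in IRI vs Control or in Hemin vs Control, on arrays outside the comparison. All curves cross the median near 0, at 0.01 and 0.02 for the genes called in IRI vs Control, and at 0.11 for those higher and -0.05 for those lower in Hemin vs Control.

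Several of the genes described above were also set beside unprotected injury. Both protected groups were set against the same 4 IRI arrays, so the values are given side by side only. The IRI slide was scanned on another day than either protected group, so slide and scan day cannot be told apart from treatment here either. Idi1 differed from IRI by 1.22 in IPC+IRI and by -0.90 in IRI+Hemin (adjusted p of 0.000498 and 0.00474), on opposite sides of the unprotected kidney. Hpd also lay on opposite sides, at -1.62 and 0.94 (adjusted p of 4.21e-05 and 0.00326), and so did Slc8a1, at 0.79 and -1.03 (adjusted p of 0.00904 and 0.00138). Chac1 differed from IRI by -1.48 in IPC+IRI (adjusted p = 0.00091) and by 0.03 in IRI+Hemin (adjusted p = 0.943). Hmox1 differed by -2.07 (adjusted p = 0.00162) and -0.23 (adjusted p = 0.712). Pvalb, in contrast, differed by 0.63 (adjusted p = 0.0737) and -1.67 (adjusted p = 0.000151), and Alas1 by 0.57 (adjusted p = 0.0413) and 1.77 (adjusted p = 1.13e-05).

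Of 154 genes examined under the naming rule, 123 passed the test. Of these, 60 did not pass with the normexp background correction, and in 49 of the 60 the difference also shrank by more than 1.5 times. The offset of 50 in that correction shrinks the log2 differences of dim genes by itself, so the shrinkage is no separate sign of instability. Beside the genes detected in 1 group only, these 49 included Mpa2l, Cxcl9, Aif1, Ccr2, Cd3d, Cd8a, Nkg7, Ltf, Tlr3 and Nod2 of the immune genes, Mki67, Prc1, Rrm2 and Ccna2 of the cell cycle, Sox18, Tek and Tie1 of the endothelium, and Fgf21, Prodh, Hmgcs1, Lbp, Saa1, Fn1, Mas1, Cd44 and Trpm6. Without scaling between arrays 70 of the 123 did not pass, with the 8 arrays fitted alone 71, in the authors' log2 matrix 30 of 102 tested, and with 1 array left out 16 to 36. Of the genes so lost, the difference shrank by more than 1.5 times in 0 without scaling and in 0 with the 8 arrays alone. The number was 10 in the authors' matrix and 0 to 2 with 1 array left out. Of the 123, 21 passed under every one of the 20 alternative settings that tested them. Higher in IPC+IRI among these 21 were Idi1, Fdps, Dhcr7 and Insig1 of cholesterol synthesis, Pvalb, Calb1, Slc8a1 and Atp6v1g3 of the distal nephron, and Sdf2l1 and Ugt2b36. Lower were Hpd, Gldc and Ehhadh of amino acid and fatty acid breakdown, Alas1 of heme synthesis, Chac1, Abcb1b and Sult1a1, and Upp2, Cml5, Tgm1 and Col13a1. None of the 21 was an immune, endothelial or cell cycle gene. Dim genes of these groups could fail the normexp setting through its offset alone.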

How the data were processed

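Whole-kidney RNA was hybridised to Agilent 1-colour arrays, and the authors deposited the scanner output of each array (Feature Extraction 9.5.3.1), whose processed signal is a background-subtracted intensity. The authors also deposited a log2 matrix, blank in 32.7% of its values, which was used only as an alternative. Its values for single-spot probes were all (100%) within 0.001 of the log2 processed signal, so it carries no scaling between arrays, and it was scaled here like the signals. Where a probe was blank in it, the gene was averaged over its other probes, so arrays could differ in the probes averaged. Here control spots and outlier flags were left out, spots and then probes of a gene name were averaged on the linear scale, signals were divided by the 75th percentile of the array and log2 values were taken. All 20 arrays were fitted with 5 group means in limma 3.58.1 (R 4.3.3, lmFit and eBayes, 15 residual degrees of freedom), with Benjamini-Hochberg adjusted p-values. In simulated data 71% of 100 genes changed 2-fold and 94% of 100 changed 4-fold were recovered in this comparison. Nothing in the labels says that arrays of a group are separate animals, so p-values measure the spread between these samples.

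Named genes were Hmox1, the 10 called genes with the largest difference in each direction among those above background on all 8 arrays and without overlap, the 5 in each direction with the largest bound among those detected in 1 group only, up to 4 called and 4 further members of each gene list, and up to 3 called members of each family. The members and lists were chosen with earlier results of these data known. Other genes are named from the same lists by their values. Some named genes are not reported here. Promoters came from RefSeq (GRCm38.p6). The alternatives were another background correction, scaling, probe summary, filter, fold limit, sample set and replicate block, and leaving out each array.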

Additional observations from a re-analysis of the deposited data

Results flagged for a closer look

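For the 154 named genes, each group of 4 arrays was searched for an array whose gap to its nearest neighbour, as a share of the range of the group, exceeded Dixon's critical value, and 12 of 308 groups held one. Chance alone gives about 1 in 20. Replicate 1 of IPC+IRI was such an array for Slc8a1, at -0.27 against -1.25 to -1.14 on the other arrays. The same array stood apart for Col13a1, at -4.13 against -2.65 to -2.45, and for BB517238, at -7.03 against -5.42 to -5.11. It was also the low one for Saa1, at -2.69 against -2.46 to -2.41, and the high one for Alb, at -0.74 against -1.54 to -1.45.

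Replicate 4 of IRI+Hemin was the low array for Col13a1, at -1.91 against -0.46 to -0.18, for Trim55, at -1.72 against -0.04 to 0.04, and for Rrm2, at -3.86 against -3.10 to -3.02. It was the high array for Dnaja1, at 3.31 against 2.93 to 2.94. Replicate 2 of IRI+Hemin was high for Epas1, at 3.68 against 3.26 to 3.30. Replicate 4 of IPC+IRI was high for Olfr1182, at -4.31 against -4.58 to -4.55. Replicate 2 of IPC+IRI was high for Adipoq, at 0.34 against -7.40 to -6.95. The causes were not tested.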

How the results depend on the processing

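The counts of genes called higher and lower in IPC+IRI, 302 and 196, were 62 and 62 with the normexp background correction, 133 and 130 without normalization between arrays, 170 and 165 in the log2 matrix deposited by the authors, 164 and 129 among genes above background on all 8 arrays, 125 and 103 with the 8 arrays fitted alone, 1162 and 1020 without a fold limit, and 76 and 61 at 3-fold. Leaving out each array in turn gave 250 to 360 and 151 to 228. In the deposited matrix Hmgcs1 reversed to -0.63 and Epas1 to 0.82. In the scanner signal the Hmgcs1 probes gave 0.64 to 0.73 and the Epas1 probes -0.65 to -0.34, so no probe of either gene reversed there. Blanks in the matrix can leave different probes of a gene on different arrays, and their part in the reversals was not tested. Of the 123 named genes that passed, the other 121 kept their sign in the 20 settings. With a replicate block the counts were 274 and 188. Deviations of same-numbered arrays correlated at 0.18, 0.22, -0.23 and -0.26, and 1 of 4 arrays correlated best with its own number, so the numbers do not pair the arrays. Without IPC+IRI 1 and IRI+Hemin 4, the array of each group least like the rest, an alternative chosen after seeing the data, 387 and 173 genes were called. The number of arrays limits the precision, and slide, scan day and protection cannot be told apart.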

Other observations

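Further gene families were followed through the comparison of IPC+IRI with IRI+Hemin. Subunits of the respiratory chain, which makes most of the tubule's ATP, were higher in IPC+IRI in 7 of 78 genes tested (8.97%, beside 6.42% of all genes) and lower in 1, with 57 positive differences and a median of 0.19. The count of 7 was 3 without IPC+IRI 1 or 4, 4 without IRI+Hemin 2, 2 without both IPC+IRI 1 and IRI+Hemin 4, 2 with the 8 arrays fitted alone, 1 without scaling between arrays and 13 with quantile normalization. The members higher included Cox7c (0.94, adjusted p = 0.00959), Uqcrb (0.88, adjusted p = 0.00403) and Sdhd (0.62, adjusted p = 0.0072), and the one lower was Cox6b2 (-0.58, adjusted p = 0.0481). Of 63 translation factors 10 (15.9%, beside 5.64% of all genes) were lower, a count that was 3 to 7 with each array left out in turn and 0 without scaling between arrays or with the 8 arrays fitted alone. Another 5 (7.94%, beside 6.42%) were higher, a count of 0 with the normexp background correction, namely Eif2c1, Eif2c4, Eif2s3y, Eif4a3 and Eif4e at 0.36 to 0.65. Slco1a4, an organic anion transporter, was called lower at a difference of -1.64 (adjusted p = 0.00622), and Slc35f1 was called higher by 1.32 (adjusted p = 0.00636).

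Sfrp1, a secreted inhibitor of Wnt signalling, was called higher in IPC+IRI, at 1.31, 0.42, 0.97 and 0.46 against -0.46, -0.43, -0.73 and 0.25, without overlap (1.13 ± 0.23, adjusted p = 0.00481). Of 29 Wnt genes tested, 3 were lower (10.3%, beside 5.64% of all genes), the receptors Fzd2 (-0.99, adjusted p = 0.000291) and Fzd4 (-0.57) and the Wnt acyltransferase Porcn (-0.47). The mitotic motors Kif4 (1.57), Kif20b (1.50) and Kif20a (1.24) were called higher with adjusted p-values of 0.0143, 0.035 and 0.0274, the last 2 not without IPC+IRI 1, 2 or 3 or IRI+Hemin 2, 3 or 4 (adjusted p of 0.0529 to 0.0947) for Kif20b and IPC+IRI 1 or 3 or IRI+Hemin 1, 2 or 3 (adjusted p of 0.0514 to 0.075) for Kif20a. The 3 Kif20b probes gave 2.00, 0.18 and -0.17, and with the mean of log2 values over probes Kif20b did not pass (adjusted p = 0.18). Hoxb8, a position gene of the trunk, was higher by 1.44 (adjusted p = 0.0147). None of 18 circadian clock genes passed (1 at an unadjusted limma p below 0.05). Metallothionein Mt3 was higher by 0.80 (adjusted p = 0.00354).

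Of 913 olfactory receptor genes on the array 212 could be tested, and 40 of these (18.9%, beside 6.42% of all genes) were higher in IPC+IRI and 5 (2.36%, beside 5.64%) lower. Genes above background in 1 group only enter the test through that group, so the counts are a description. The count of 40 was 26 without IRI+Hemin 3 and 17 without scaling between arrays. Olfr1182 stood at -4.55, -4.58, -4.57 and -4.31 in IPC+IRI and -6.54, -6.66, -6.16 and -5.94 in IRI+Hemin, with none of the latter arrays well above background, which makes it at least 3.54-fold higher (adjusted p = 0.000267). With the normexp background correction, whose offset shrinks the differences of genes this dim, no olfactory receptor passed as higher. Adiponectin (Adipoq), a marker of fat, differed by -2.59 and did not pass (adjusted p = 0.558).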
